A study of Neurospora crassa OR74A with 3 samples.

Results

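The genes described here are the abundant transcripts of Neurospora crassa whose levels lay closest together in 3 strains kept on cellobiose. They were chosen from their own read counts. A gene is abundant here if it had at least 2000 reads in each of the 3 libraries, and steady if its highest scaled level was at most 1.3 times its lowest. Of 9730 genes in the files, 384 were abundant and 117 of these were steady, which is 30.5% of the abundant genes. Scaled reads are reads divided by a size factor. That factor is the median over 8691 genes of each gene's reads relative to its own geometric mean over the 3 libraries. A steady gene is therefore one that kept its place relative to the median gene, and other ways of scaling pick other genes: on total gene reads, 37 of the 117 stayed within the limit.

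N. crassa is a filamentous fungus that lives on plant material. Δ3βG, the parent, lacks 3 β-glucosidase genes, whose enzymes split cellobiose into glucose, and the other strains carry the same deletions. Δ3βGΔclp1, written Δ3βGΔncu05853 in the labels, also lacks clp1 (NCU05853), a gene resembling cellodextrin transporter genes. Δ3βGΔcdt2Δclp1, written Δ3βGΔcdt2Δncu05853 there, lacks the cellodextrin transporter gene cdt-2 as well. Mycelia of each strain grew for 16 h in sucrose and then stayed for 4 h in 2% cellobiose, and 1 library was made per strain. No value below has a replicate check, and the 95% intervals cover counting error only.

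The libraries held 8586155 to 9808610 reads assigned to genes. Over Δ3βG, Δ3βGΔclp1 and Δ3βGΔcdt2Δclp1, clp1 had 4190, 2 and 0 reads, and cdt-2 (NCU08114) had 1907, 2842 and 9. The β-glucosidase genes gh1-1, gh3-3 and gh3-4, which all 3 strains should lack, had 0 to 47 reads. The hydrophobin gene eas (NCU08457) took 18.7%, 20.02% and 0.305% of gene reads in Δ3βG, Δ3βGΔclp1 and Δ3βGΔcdt2Δclp1. The cellobiohydrolase gene cbh-1 (NCU07340) took 0.00571%, 0.00763% and 6.50%. The library of Δ3βGΔcdt2Δclp1 thus stood apart in make-up, and values under scalings that count these reads are given below.

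Genes for the cytoskeleton, chromatin and core signalling are often called housekeeping genes because most cells use them at all times. In expression studies such genes serve as references, on the assumption that their messenger RNA keeps a constant share of the total. Histones package DNA, and actin and tubulin form filaments of the cytoskeleton. Kinases, phosphatases and G proteins relay signals to growth and cell wall synthesis.

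Together the 117 steady genes took 7.63% of gene reads in Δ3βG, with an exact 95% interval of 7.61% to 7.65%. The share was 7.69% in Δ3βGΔclp1 (7.68% to 7.71%) and 5.68% (5.66% to 5.69%) in Δ3βGΔcdt2Δclp1. After scaling, their summed level was 642463, 651455 and 631065 scaled reads. As a share of gene reads the group was lower in Δ3βGΔcdt2Δclp1, whereas on the scale relative to the median gene, which the rule used, the 3 sums lay close together. The abundant genes that were not steady took 39.5%, 41.3% and 27.5% of gene reads.

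Highest-over-lowest ratios of the steady genes ran from 1.02 to 1.299, with a median of 1.16, against 1.58 over all abundant genes and 1.85 over the 267 that were not steady. The rule was set on this ratio, so the order of these medians follows from the choice of genes. At most 1.1-fold apart were 30 of the 117, and 79 were at most 1.2-fold apart. The counting interval of the highest-over-lowest ratio included 1 for 4 genes and excluded it for 113. The highest and lowest libraries were picked by value, which favours intervals that exclude 1. For fixed pairs, the interval included 1 for 46 members in Δ3βGΔclp1 against Δ3βG and for 27 in Δ3βGΔcdt2Δclp1 against Δ3βG. It included 1 for 25 in Δ3βGΔcdt2Δclp1 against Δ3βGΔclp1. Counting error is not the spread between cultures, which 1 library per strain cannot show. The highest-over-lowest interval passed the limit of 1.3 for 17 members, while for 12 abundant genes outside the limit it began at or under 1.3.

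**Figure D1:**
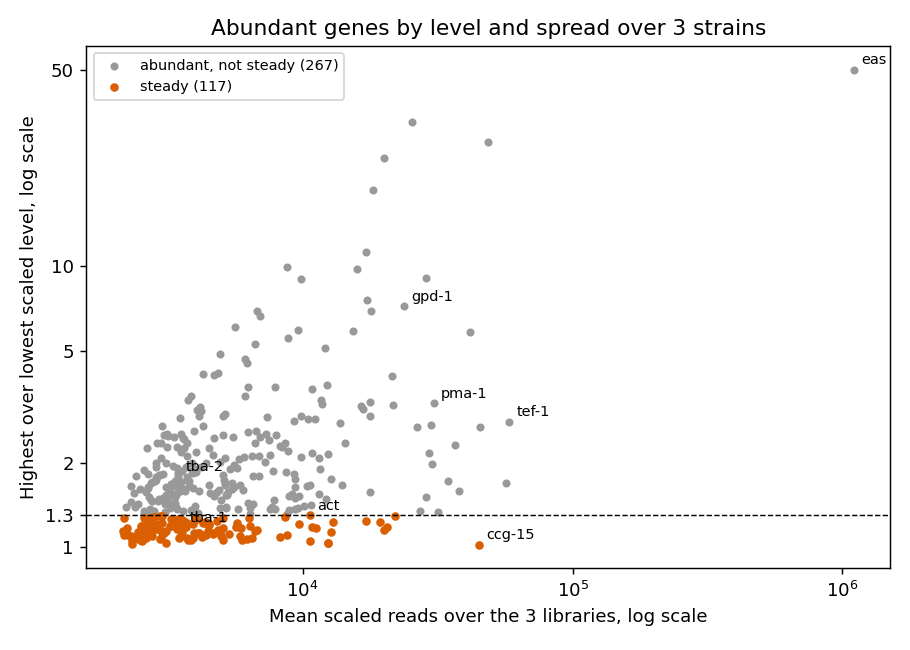
Highest-over-lowest scaled level (vertical, log scale) against mean scaled reads over the 3 libraries (horizontal, log scale) for the 384 abundant genes. Orange points are the 117 steady genes under the dashed limit of 1.3, grey points the other 267, which reach 50.01 at eas.

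The limit of 1.3 cut through a continuous range. Just inside stood act at 1.299, NCU04255 and NCU02599 at 1.295, NCU02307 at 1.293 and NCU03786 at 1.282. Just outside stood NCU04521 at 1.309, the kinase gene prk-8 (NCU01498) at 1.313, NCU04404 at 1.316, NCU06738 at 1.319 and stk-10 (NCU03200) at 1.324. At the read minimum, the members with fewest reads in any library were NCU09469 with 2002, NCU05685 with 2020, stk-50 with 2023, NCU03797 with 2027 and NCU06436 with 2033. Within 1.3-fold but under the minimum were NCU07437 with 1976 reads, cka (NCU03124) with 1957, camk-4 (NCU09212) with 1946, NCU03860 with 1945 and NCU00589 with 1942.

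With the size factors, the cell wall gene ccg-15 (NCU08936, also acw-1) was the steadiest member and the most abundant one. On total gene reads ccg-15 was outside the limit. It had 45342, 44360 and 44983 scaled reads in Δ3βG, Δ3βGΔclp1 and Δ3βGΔcdt2Δclp1, 1.02-fold apart (1.01 to 1.04). The acw genes encode anchored cell wall proteins, and their abundant members spread widely: 3 of 9 were steady, near the 30.5% of all abundant genes, with a median ratio of 2.82 over the 9, beside 1.58 over all abundant genes. This list was drawn up after its values were seen. acw-10 (NCU03013) had 3715, 3940 and 3873 scaled reads in the same order of strains, and acw-2 (NCU00957) had 3892, 3892 and 3303. These 3 genes stood beside acw-3 (NCU05667), with 25074, 19966 and 2561 scaled reads, 9.79-fold apart, and acw-4 (NCU09263), with 17589, 14803 and 4646. acw-5 (NCU07776) and acw-7 (NCU09133) went the other way, highest in Δ3βGΔcdt2Δclp1 at 16074 and 7438 scaled reads. The ratio of reads between genes of 1 library does not depend on scaling. ccg-15 had 1.81 reads per read of acw-3 in Δ3βG, 2.22 in Δ3βGΔclp1 and 17.6 in Δ3βGΔcdt2Δclp1, whereas against acw-2 it had 11.7, 11.4 and 13.6.

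Of the 6 abundant histone genes, 4 were steady, beside 30.5% of all abundant genes, and the other 2 lay just outside the limit. The median ratio of the 6 was 1.19, and 6 genes are too few to read a share. hH2A (NCU02437) had 10790, 10314 and 10869 scaled reads in Δ3βG, Δ3βGΔclp1 and Δ3βGΔcdt2Δclp1, 1.054-fold apart (1.03 to 1.08). Its partner in the nucleosome, hH2B (NCU02435), had 20421, 21305 and 18559 scaled reads, and the H4 gene hH4-1 (NCU01634) had 13091, 13268 and 11691, both lowest in Δ3βGΔcdt2Δclp1. The linker histone gene hH1 (NCU06863) had 11853, 12419 and 14615 scaled reads, highest in Δ3βGΔcdt2Δclp1 on this scale and in 3 of the 8 other scalings, and lowest there on total gene reads. Outside the limit, hH3 (NCU01635), the neighbour of hH4-1 in RefSeq order, had a ratio of 1.33 (1.31 to 1.36) and the second H4 gene hH4-2 (NCU00212) one of 1.36 (1.31 to 1.40). Within a library, hH4-1 had 1.35 reads per read of hH4-2 in Δ3βG (1.32 to 1.39), 1.36 in Δ3βGΔclp1 (1.33 to 1.39) and 1.62 in Δ3βGΔcdt2Δclp1 (1.57 to 1.68). Levels of histone genes with near-identical copies are uncertain, since reads with several alignments, 2.48% to 6.36% of a library, were counted for no gene.

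Actin, a myosin, a formin and an α-tubulin gene were among the members. In the list of actin, tubulin, plasma membrane ATPase and motors, 3 of 5 abundant genes were steady, beside 30.5% of all abundant genes, with a median ratio of 1.299. With 5 genes this share too is not read. The myosin gene myo2 (NCU00551) had 3913, 3784 and 4085 scaled reads in Δ3βG, Δ3βGΔclp1 and Δ3βGΔcdt2Δclp1, 1.08-fold apart (1.03 to 1.13). The formin gene bni1 (NCU01431), whose product nucleates actin filaments, had 2549, 2608 and 2475, and the interval of its ratio (0.996 to 1.11) included 1. Actin itself (act, NCU04173) was the least steady of all 117, with 9481, 10039 and 12312 scaled reads, 1.299-fold apart (1.26 to 1.33). With the size factors it was highest in Δ3βGΔcdt2Δclp1, as in 4 of the 8 other scalings, and on total gene reads it was lowest there. Of the α-tubulin genes, tba-1 (NCU09132) had 3499, 3900 and 3320 scaled reads. Its relative tba-2 (NCU09468) had 4136, 3909 and 2316, a ratio of 1.79 (1.69 to 1.88). In reads of the same library, tba-1 stood at 0.846 of tba-2 in Δ3βG (0.809 to 0.885), 0.998 in Δ3βGΔclp1 (0.957 to 1.04) and 1.43 in Δ3βGΔcdt2Δclp1 (1.35 to 1.52). The ratio between the α-tubulin genes was thus highest in Δ3βGΔcdt2Δclp1, whatever the scaling.

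Of 5 genes that often serve as references or controls, act alone was within the limit. The β-tubulin gene, Bml (NCU04054) in RefSeq, had 5738, 6196 and 3939 scaled reads in Δ3βG, Δ3βGΔclp1 and Δ3βGΔcdt2Δclp1, a ratio of 1.57. The translation elongation factor gene tef-1 (NCU02003) had 34448, 43673 and 96293, a ratio of 2.80, and the plasma membrane proton ATPase gene pma-1 (NCU01680) had 41877, 37136 and 12873, a ratio of 3.25. The glyceraldehyde phosphate dehydrogenase gene gpd-1 (NCU01528) had 7261, 11390 and 52370, a ratio of 7.21. tef-1 and gpd-1 were highest and pma-1 lowest in Δ3βGΔcdt2Δclp1, so that no common scaling could bring all of them level. Set against actin in the same library, tef-1 had 3.63 reads per actin read in Δ3βG (3.55 to 3.72), 4.35 in Δ3βGΔclp1 (4.26 to 4.44) and 7.82 in Δ3βGΔcdt2Δclp1 (7.67 to 7.98).

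**Figure D2:**
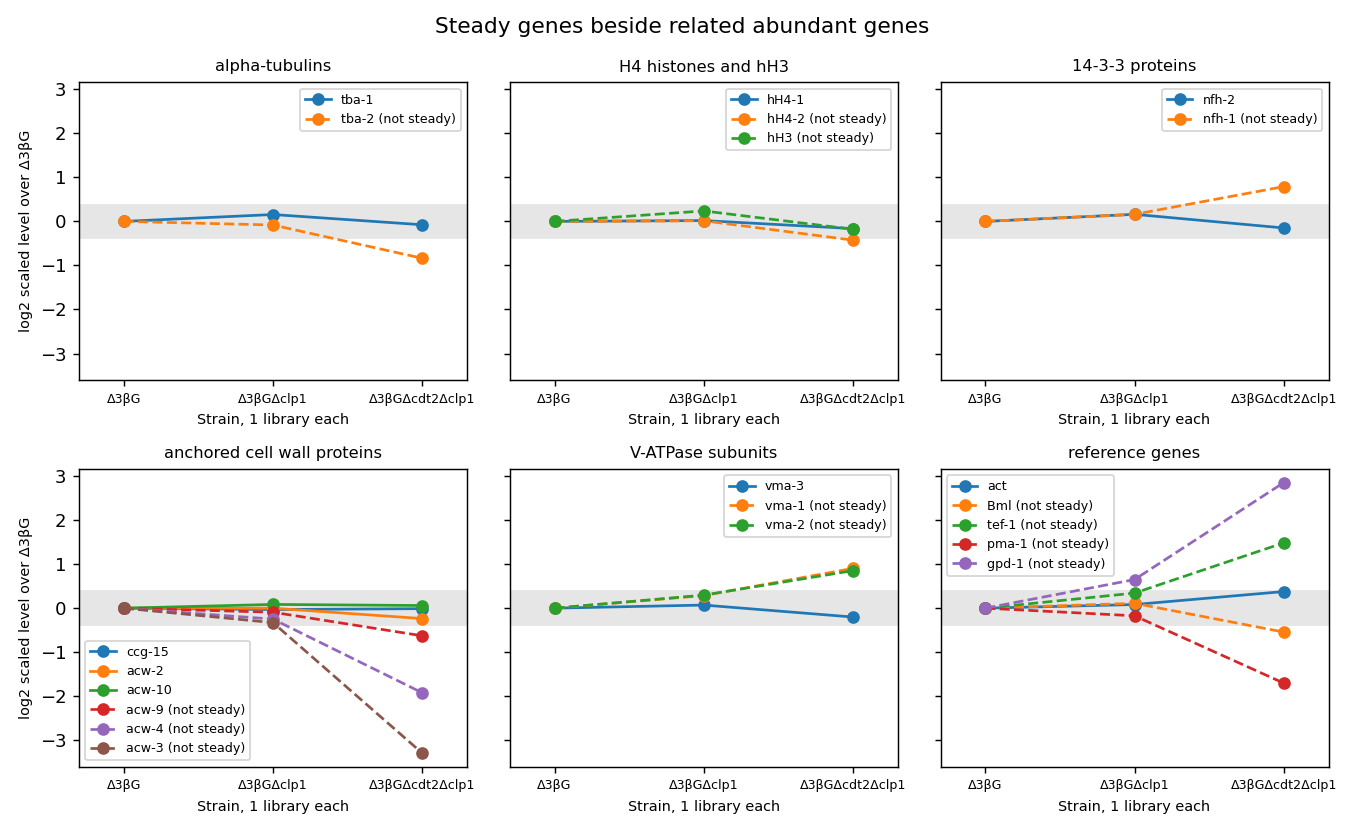
Log2 scaled level relative to Δ3βG (vertical) in the 3 strains (horizontal, 1 library each) for steady genes (solid lines) and related abundant genes that were not steady (dashed lines); the grey band marks 1.3-fold around Δ3βG. tba-1, hH4-1, nfh-2, vma-3, act and 3 acw genes stay in the band, while acw-3 ends 9.79-fold and gpd-1 7.21-fold from its other extreme.

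In the list of signalling genes and small GTPases, the largest one used, 9 of 20 abundant genes were steady, beside 30.5% of all abundant genes, with a median ratio of 1.36. The list holds stk-50, stk-22, stk-5, bni1, pp-1, pph-3, rgb-1, gng-1 and os-1 among the steady genes, bni1 being a cytoskeletal factor described above. Outside the limit it took in, by symbol only, cpc-1 (NCU04050) at 2.16 and ppm-2 (NCU03100) at 3.71. Its share is that of the matched symbols, not of a checked set of signalling genes. stk-50 (NCU07280), named as a serine/threonine kinase, had 2357, 2335 and 2293 scaled reads in Δ3βG, Δ3βGΔclp1 and Δ3βGΔcdt2Δclp1, and the interval of its ratio of 1.03 (0.969 to 1.09) included 1. stk-22 (NCU03523) had 6227, 6228 and 5302 scaled reads and stk-5 (NCU06179) 2911, 2650 and 2408, both lowest in Δ3βGΔcdt2Δclp1. prk-1 (NCU04185), also named as a kinase, had 6387, 6479 and 7382, highest in Δ3βGΔcdt2Δclp1 on this scale and lowest there on total gene reads. Among the kinases named stk or prk, 4 of 9 abundant genes were steady, beside the same 30.5%, and stk-39 (NCU06230) lay farthest out with a ratio of 2.60. That kinase list was drawn up after its values were seen and shares stk-50, stk-22 and stk-5 with the signalling list.

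The osmosensing histidine kinase gene os-1 (NCU02815) and os-2 (NCU07024), the mitogen-activated protein kinase gene downstream of it, did not stay together. os-1 had 7884, 7893 and 10059 scaled reads in Δ3βG, Δ3βGΔclp1 and Δ3βGΔcdt2Δclp1, a ratio of 1.28 (1.24 to 1.32), and was lowest in the last on total gene reads. os-2 had 3705, 3022 and 7398, a ratio of 2.45. In the cell wall integrity pathway, the gene of the first kinase, mik-1 (NCU02234), had 2357, 2459 and 2794 scaled reads and was steady at 1.19. mek-1 (NCU06419), the next kinase gene, fell outside the limit at 1.37, with 4005, 3336 and 2920 scaled reads. pp-1 (NCU00340), a transcription factor of the mating and hyphal fusion pathway, had 4081, 4374 and 3907, while mak-2 (NCU02393), the kinase gene of that pathway, had a ratio of 2.18.

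Both the adenylyl cyclase gene and a G protein subunit gene were close to the limit. The adenylyl cyclase gene cr-1 (NCU08377) had 5486, 5341 and 4323 scaled reads in Δ3βG, Δ3βGΔclp1 and Δ3βGΔcdt2Δclp1, 1.27-fold apart (1.22 to 1.32). The G protein γ subunit gene gng-1 (NCU00041) had 2978, 2816 and 2343, a ratio of 1.27. The phosphatase genes were alike in order: the catalytic subunit gene pph-3 (NCU00043, also ppp-1) had 4841, 4345 and 4234 scaled reads, and rgb-1 (NCU09377), for a regulatory subunit of protein phosphatase 2A, had 2898, 2830 and 2394. For the 14-3-3 proteins, which bind phosphorylated partners, nfh-2 (NCU02806) had 17062, 19075 and 15391 scaled reads. Its relative nfh-1 (NCU03300) had 3978, 4446 and 6881, a ratio of 1.73. nfh-2 had 4.29 reads per read of nfh-1 in Δ3βG (4.14 to 4.44) and in Δ3βGΔclp1 (4.16 to 4.43), and 2.24 in Δ3βGΔcdt2Δclp1 (2.17 to 2.31). The gene of the small GTPase Ran, ran (NCU09269), which drives nuclear transport, had 5508, 6060 and 5968, with an interval of the ratio of 1.06 to 1.14.

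**Figure D3:**
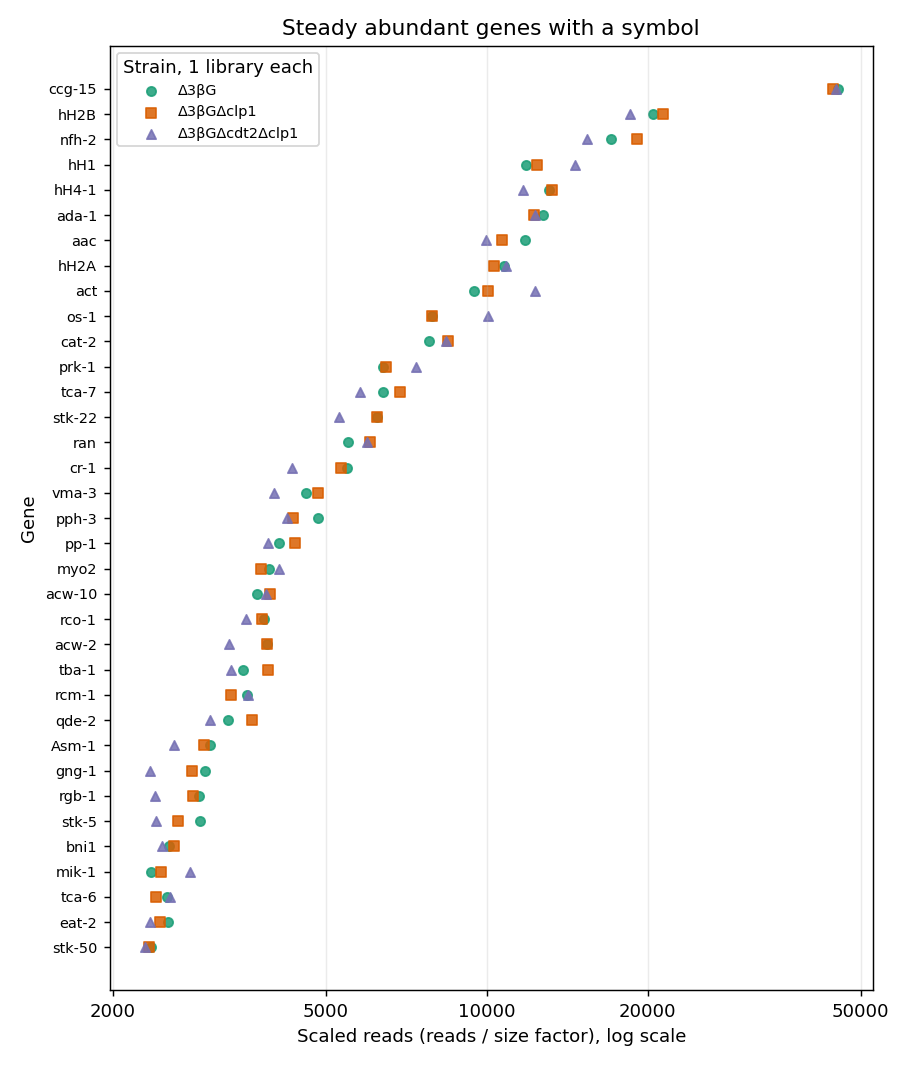
Scaled reads (horizontal, log scale) of the 35 steady genes with a RefSeq symbol (vertical, ordered by mean) in each strain, 1 library per strain. The 3 points of ccg-15 nearly coincide, with a mean of 44895, while act and os-1 have their triangle (Δ3βGΔcdt2Δclp1) to the right of the others; on total gene reads it would be to the left.

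Both genes of the Tup1-Ssn6 type corepressor, known from yeast as a general repressor of transcription, were steady, beside 30.5% of all abundant genes. This pair was listed after its values were seen, so nothing is read from the count. rco-1 (NCU06205), the Tup1 counterpart, had 3828, 3794 and 3552 scaled reads in Δ3βG, Δ3βGΔclp1 and Δ3βGΔcdt2Δclp1, and rcm-1 (NCU06842), the Ssn6 counterpart, 3556, 3321 and 3583. Each was 1.08-fold apart (1.03 to 1.13). Over 8 other scalings rco-1 was steady in 4 and rcm-1 in 6, and neither was steady on total gene reads. Reads of rco-1 per read of rcm-1 were 1.08 (1.03 to 1.13), 1.14 (1.09 to 1.19) and 0.991 (0.943 to 1.04). Other genes of gene control were the bZIP transcription factor gene ada-1 (NCU00499), with 12714, 12275 and 12326 scaled reads, the APSES transcription factor gene Asm-1 (NCU01414), with 3033, 2961 and 2603, and the Argonaute gene qde-2 (NCU04730), which acts in RNA silencing, with 3286, 3648 and 3039. The chromatin and transcription list had 1 abundant gene, set-4 (NCU04389), which was not steady at 1.58.

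ada-1 and NCU16460 overlap in the RefSeq annotation, and both were among the 5 steadiest genes at 1.036. ada-1 had 12960, 13724 and 10875 reads in the 3 strains, and NCU16460 had 12842, 13945 and 10725. The ratios of 1.01, 0.984 and 1.01 all had intervals that included 1. Reads on more than 1 gene were listed as ambiguous (0.844% to 0.897% of a library) and counted for no gene, but which genes overlap in the annotation used for counting, and the use of strand, are not stated. The levels of the pair are therefore uncertain.

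Genes of energy metabolism were steady in some cases. The citric acid cycle list had 2 steady genes of 6 abundant ones, near the 30.5% of all abundant genes, with a median ratio of 1.57. tca-6 (NCU00775) had 2521, 2411 and 2556 scaled reads in Δ3βG, Δ3βGΔclp1 and Δ3βGΔcdt2Δclp1, 1.06-fold apart (1.002 to 1.12), and tca-7 (NCU05425) had 6404, 6894 and 5806. tca-5, tca-3, suc and tca-16 were outside, at 1.38 to 2.47, suc being known in N. crassa as the pyruvate carboxylase gene. In the respiratory chain, ATP synthase and carrier list, the mitochondrial ADP/ATP carrier gene aac (NCU09477) was steady, with 11790, 10676 and 9984. The ATP synthase genes atp-1 (NCU02514) and atp-2 (NCU05430) had ratios of 2.97 and 2.20, and both abundant genes of complex I, nuo51 (NCU04044) and nuo78 (NCU01765), were outside at 1.81 and 2.25. Of the vacuolar ATPase genes, vma-3 (NCU01332), for the proton-conducting ring subunit, had 4602, 4832 and 4003 scaled reads. Those of the catalytic part, vma-1 (NCU01207) and vma-2 (NCU08515), had ratios of 1.87 and 1.80. Within a library vma-3 had 1.62, 1.39 and 0.751 reads per read of vma-1 in the same order of strains. The catalase-peroxidase gene cat-2 (NCU05770) had 7803, 8459 and 8385 scaled reads. The catalase gene cat-3 (NCU00355), not abundant by the rule, had 120, 105 and 1667 in the same order of strains. The remaining member with a symbol, eat-2 (NCU01956), had 2539, 2449 and 2351.

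Most lists held too few abundant genes to read a share against the 30.5% of all abundant genes. That includes the lists of histones (4 of 6) and of actin, tubulin, plasma membrane ATPase and motors (3 of 5). No abundant gene was steady in the lists of translation factors (0 of 2, median ratio 2.57), chaperones (0 of 3, 2.35), amino acid biosynthesis (0 of 5, 2.13), mitochondrial import and porin (0 of 2, 1.87), and autophagy and ubiquitin (0 of 2, 2.21). The import list took in pep4 (NCU02273) by its symbol, which is a vacuolar protease gene. Lists were matched to symbols, and 82 of the 117 members have none, so most members are in no list. A symbol was held by 29.9% of the steady genes and by 36.7% of the abundant genes that were not steady.

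Members without a symbol had mean levels of 2157 to 22034 scaled reads, and those with one of 2329 to 44895. NCU02307 had 22083, 24823 and 19195 scaled reads in Δ3βG, Δ3βGΔclp1 and Δ3βGΔcdt2Δclp1, a ratio of 1.29 (1.27 to 1.32). NCU06781 had 21336, 21650 and 18391, and NCU08949 had 12039, 11197 and 10246. NCU01835 was lowest in Δ3βG, with 17528, 21625 and 18992 scaled reads. Among the steadiest, NCU02404 had 3059, 3169 and 3115 (ratio 1.04, 0.987 to 1.09) and NCU04059 had 2392, 2274 and 2320 (ratio 1.052, 0.995 to 1.11), both with intervals that included 1.

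With the size factors no strain stood at the same end for most members. Of the 117, the highest level was in Δ3βG for 37, in Δ3βGΔclp1 for 38 and in Δ3βGΔcdt2Δclp1 for 42. The lowest level was in these strains, in the same order, for 31, 29 and 57. Δ3βGΔcdt2Δclp1 was at the middle value for 18 members. This order belongs to the scaling: on total gene reads Δ3βGΔcdt2Δclp1 was lowest for all 117 members, and on all reads in the file for 103. With TMM factors it was lowest for 58 and highest for 42. With the size factors Δ3βGΔcdt2Δclp1 was highest for 184 of the 267 abundant genes that were not steady. It was lowest for 78 of them and at the middle for 5.

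Median log2 ratios of the members were 0.00 for Δ3βGΔclp1 against Δ3βG, -0.04 for Δ3βGΔcdt2Δclp1 against Δ3βG and -0.03 for Δ3βGΔcdt2Δclp1 against Δ3βGΔclp1. The same medians over all abundant genes were 0.01, 0.23 and 0.25. The sign of 0.23 belongs to the scaling, which moves all genes of a library alike. Relative to the size factors, Δ3βGΔcdt2Δclp1 against Δ3βG shifts by -0.40 on total gene reads, -0.26 on all reads and -0.69 on totals without eas. With TMM factors it shifts by 0.003. In Δ3βGΔclp1 against Δ3βG, 19 of the 117 members were at least 1.1-fold higher, beside 116 of the 384 abundant genes (30.2%). At least 1.1-fold lower were 12 members, beside 75 abundant genes (19.5%). In Δ3βGΔcdt2Δclp1 against Δ3βG, 26 members were higher, beside 211 abundant genes (54.9%), and 37 lower, beside 117 abundant genes (30.5%). In Δ3βGΔcdt2Δclp1 against Δ3βGΔclp1, 29 members were higher, beside 213 abundant genes (55.5%), and 39 lower, beside 119 abundant genes (31%). The rule used these contrasts, and nothing is read from these counts. The comparisons share libraries.

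Most abundant genes that missed the limit were within 1.3-fold between Δ3βG and Δ3βGΔclp1 and lay apart in Δ3βGΔcdt2Δclp1. Between Δ3βGΔclp1 and Δ3βG, 340 of the 384 abundant genes were within 1.3-fold (88.5%). Of these, 223 were not members, 148 of them because Δ3βGΔcdt2Δclp1 was the highest and 75 because it was the lowest. These counts are given for the size factors only. Relative to them, total gene reads shift all genes of Δ3βGΔcdt2Δclp1 against Δ3βG by -0.40 on the log2 scale, and totals without eas by -0.69. The minimum is on raw reads, so it asks for a higher scaled level in Δ3βGΔcdt2Δclp1, which has the smallest size factor. Within 1.3-fold between Δ3βGΔcdt2Δclp1 and Δ3βG were 139 abundant genes (36.2%), and between Δ3βGΔcdt2Δclp1 and Δ3βGΔclp1 141 (36.7%).

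Which genes are steady depended on the scaling, more than how many. With TMM factors of edgeR 115 genes were steady, all of them among the 117. Scaled on total gene reads 86 genes were steady, 37 of them members, and on all reads in the file 94, 61 of them members. On total gene reads without eas, 80 genes were steady and os-1 was the 1 member among them. That scaling lowers Δ3βGΔcdt2Δclp1 against Δ3βG by 0.69 on the log2 scale relative to the size factors. Over 8 other scalings no member was steady in all of them, and 31 were in 7, among them myo2, mik-1, os-1, prk-1 and hH1. tba-1, hH2B, hH4-1, vma-3 and aac were steady in 3 of the 8, act and ccg-15 in 5, and cr-1, gng-1 and nfh-2 in 2.

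**Figure D4:**
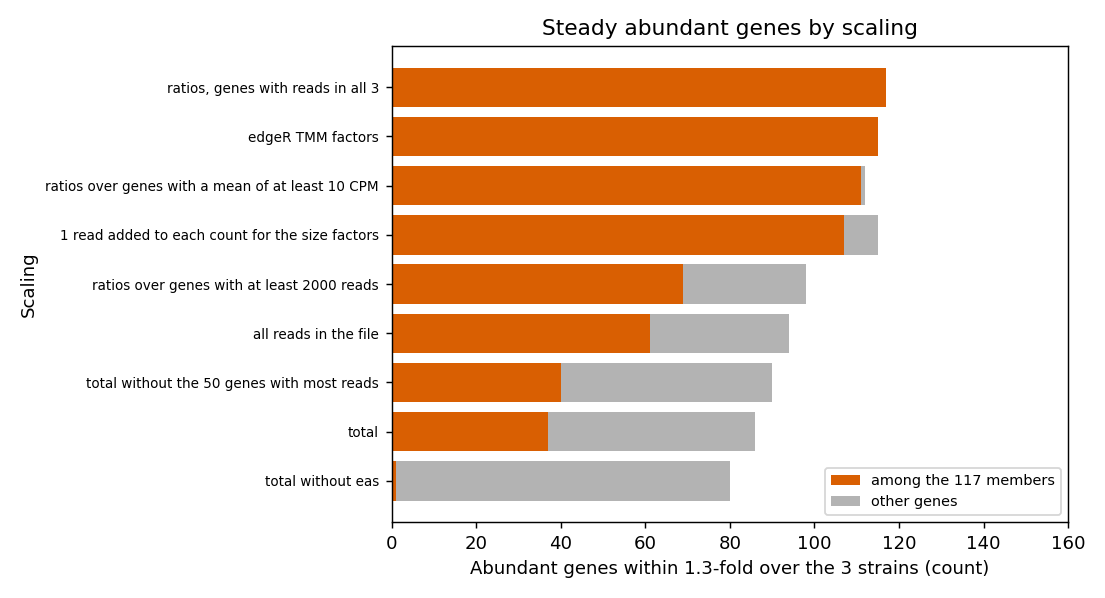
Number of abundant genes within 1.3-fold over the 3 strains (horizontal) under each scaling (vertical); orange marks genes among the 117 members and grey other genes. The count stays between 80 and 117, while the members among them go from 117 to 1.

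Exon length was not used by the rule, although a read minimum favours long genes. Members lay nearer the minimum, with a median of 3759 mean scaled reads against 5079 for the abundant genes that were not steady. Whether this bears on the lengths below was not tested. Steady genes had a median exon length of 3019 bases (quartiles 2210 and 4207), against 2691 bases (quartiles 1840 and 3765) for the abundant genes that were not steady and 1935 for all genes. With the abundant genes in 3 groups of 128 by exon length, 30 of the shortest were steady (23.4%), 40 of the middle group and 47 of the longest (36.7%). With a minimum of 5000 reads the order of the medians was reversed, 2118 bases for 26 steady genes and 2404 for the others. The longest member was NCU08501 at 13530 bases and the shortest NCU08351 at 618.

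**Figure D5:**
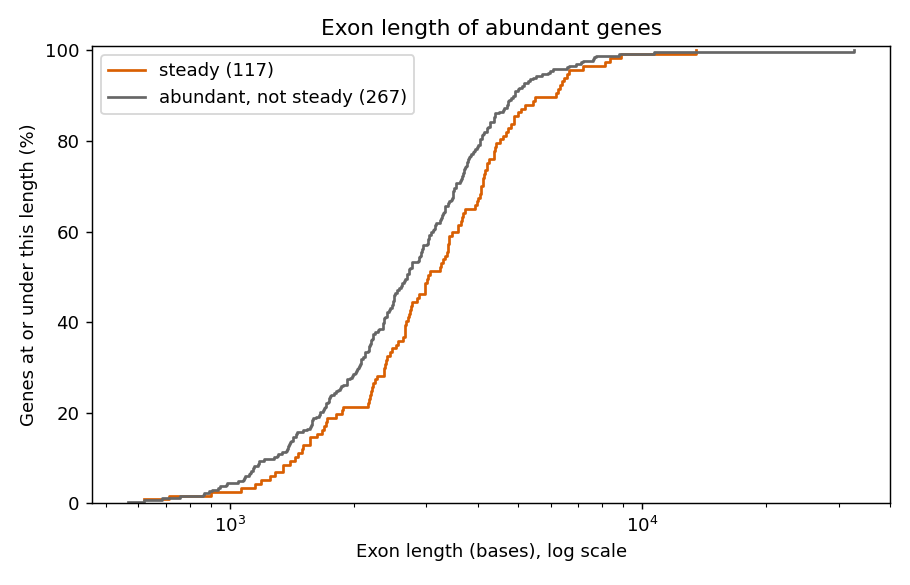
Share of genes at or under a given exon length (vertical, percent; horizontal, bases on a log scale) for 117 steady genes and 267 abundant genes that were not steady. The orange line of the steady genes lies to the right over most of the range, with medians of 3019 and 2691 bases.

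Per length, many members were only moderately expressed. Their median deposited RPKM, as a mean over the 3 libraries, was 115, with a range of 30.5 for NCU04059 to 1558 for ccg-15, against a median of 186 for the abundant genes that were not steady. On this scale 15 members had at least 500 RPKM, including hH2B at 1298, NCU01835 at 1211, NCU08351 at 995, hH4-1 at 957 and nfh-2 at 947. In 3 groups of 128 by RPKM, 56 genes were steady in the lowest group, 36 in the middle and 25 in the highest (19.5%). RPKM holds both the reads used by the rule and the exon length.

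The minimum of 2000 reads in every library leaves out genes that are low in 1 strain. A mean of 2000 or more scaled reads was reached by 803 genes, of which 152 were within 1.3-fold (18.9%). Of the 419 among them that missed the minimum in some library, 35 were within 1.3-fold. Over all 8691 genes with reads in each library the share was 20.8%, and over the 8307 of them that are not abundant it was 20.3%.

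In RefSeq order, 28 pairs of neighbouring genes were both abundant. Both genes were steady in 3 pairs, 1 gene in 10 and none in 15. The 3 pairs were ada-1 with NCU16460, which overlap, NCU02807 with nfh-2, at 1.23 and 1.24, and NCU05685 with NCU05686, at 1.146 and 1.09. By their RefSeq positions, 16 of the 117 steady genes overlapped another gene (13.7%), against 74 of the abundant genes that were not steady (27.8%) and 23.7% of all genes. Among the 16 were ada-1, hH2A, hH2B, tba-1 and vma-3, whose levels are uncertain for the same reason as those of ada-1 and NCU16460.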

How the data were processed

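RNA was sequenced from mycelia of 3 Neurospora crassa strains, 1 library each. The authors deposited read counts for 9730 genes, made with TopHat and HTSeq per the submitters' processing notes. Those notes name no versions, build or annotation, nor whether strand was used. RPKM values, which scale reads by exon length and by all reads in a library, were used as deposited for levels per length. Exon lengths in bases came from the deposited files. Reads naming no gene (8.53% to 16.8% of a library) were left out.

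Counts were divided by size factors, 1.02 in Δ3βG, 1.12 in Δ3βGΔclp1 and 0.882 in the third strain, taken as median-of-ratios over 8691 genes. Intervals are exact at 95% (Clopper-Pearson, scipy 1.17.1), and those of ratios are conditional on the summed reads. With 1 library per strain no test was made. Python 3.11.15 was used, with edgeR 4.0.16 (R 4.3.3) for alternative TMM factors. The selection was run on simulated reads with counting error only, in which few genes changed, as many up as down. That simulation held no shift in make-up like that of Δ3βGΔcdt2Δclp1, so it does not bear on the choice of scaling. RefSeq assembly NC12 gave symbols and overlaps for 9729 genes.

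The members, 18 lists defined by symbols and the settings were chosen with earlier results of these data known, and 4 lists were added after the values were seen. These 4 are the anchored cell wall proteins, the kinases named stk or prk, the corepressor and the 14-3-3 proteins. Named are members with a symbol, the 10 most abundant and 10 steadiest members as far as described, the 5 genes on either side of each limit, contrast genes and reference genes; others were chosen after their values were seen. Lists for cytosolic ribosomal proteins, proteasome, nucleotide biosynthesis, lipid and sterol, and vesicle traffic held 0 abundant genes.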

Additional observations from a re-analysis of the deposited data

How the results depend on the processing

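The number of steady genes, 117, stayed within 1.5 times under each scaling tried (80 to 115) and each limit tried (79 at 1.2, 168 at 1.5). It was 349 with a minimum of 1000 reads, 26 with a minimum of 5000, and 340 over Δ3βGΔclp1 and Δ3βG alone, a setting chosen after seeing the data. Asking that the counting interval end at or under 1.3 left 100.

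The share of abundant genes that were steady, 30.5%, was 22.4% on total gene reads, 24.5% on all reads in the file, 23.4% without the 50 genes with most reads, 20.8% without eas, 25.5% with size factors from genes of at least 2000 reads, 20.6% at a limit of 1.2, 43.75% at 1.5 and 25.5% at 5000 reads. Their share of gene reads over the libraries together, 6.96%, was 6.82% with TMM factors, 6.64% with size factors from genes of at least 10 CPM, 6.70% with 1 read added to each count, 7.30% with 2000 scaled in place of raw reads, 5.81% on total gene reads, 5.86% on all reads, 5.68% without the 50 genes, 5.64% without eas, 5.75% with size factors from genes of at least 2000 reads, 4.63% and 10.3% at limits of 1.2 and 1.5, and 11.01% and 3.51% at minimums of 1000 and 5000 reads.

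The members' median log2 ratio of Δ3βGΔcdt2Δclp1 against Δ3βG was -0.44 on total gene reads, -0.30 on all reads, -0.42 without the 50 genes, -0.73 without eas and -0.29 with size factors from genes of at least 2000 reads. Against Δ3βGΔclp1 it was -0.42, -0.33, -0.44, -0.74 and -0.27. By construction these settings move all genes of a library alike. For Δ3βGΔclp1 against Δ3βG the median lay between -0.01 and 0.04 over the scalings. For the named genes, the highest-over-lowest ratio stayed within its counting interval in 133 combinations of gene and setting and moved out of it in 322.

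Steady genes in any symbol list, 20, numbered 7 on total gene reads, 11 on all reads, 9 without the 50 genes, 9 without eas, 11 with size factors from genes of at least 2000 reads, 13 at 1.2, and 55 and 8 at minimums of 1000 and 5000 reads. The median exon length was higher for the steady genes under each setting except the minimum of 5000 reads, where it was 2118 against 2404 bases; the cause was not tested. No paired analysis was possible because each strain has 1 library, and for the same reason no library could be left out of a group.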

Other observations

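The genes that were steady on total gene reads without eas are other genes than those described above: 80 were within 1.3-fold on that scale, 30 of them with a symbol, and 1 of the 80 is a member. They include gul-1 (NCU01197) with 7726, 8985 and 10976 reads in Δ3βG, Δ3βGΔclp1 and Δ3βGΔcdt2Δclp1, a ratio of 1.07 on that scale and 1.64 relative to the median gene. The photoreceptor gene vvd (NCU03967) had 7162, 8733 and 12944 reads, with ratios of 1.29 and 2.09. The ubiquitin gene ubi (NCU05995) had 1.21 and 1.53, the mitochondrial porin gene por (NCU04304) 1.24 and 2.01, vma-1 1.23 and 1.87, vma-2 1.24 and 1.80, and nfh-1 1.13 and 1.73. Thus vma-3 and nfh-2 were steady on one scale, and their relatives vma-1, vma-2 and nfh-1 on the other. These genes were chosen after their values were seen.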
